A study of Mus musculus with 21 samples.

Results

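The comparison concerns the 2 largest H2Bub1 domain lists of the series, that of cells differentiated for 4 days and that of undifferentiated embryonic stem (ES) cells overexpressing Fbxl19. Its members are all domains of both deposited lists, 5125 differentiated and 7216 overexpression domains. Together they are 12341 of the 18181 regions in the 5 H2Bub1 lists, and of the 42669 regions in the 8 lists of the series. A domain was counted as having a counterpart when it overlapped a domain of the other list by at least 1 bp. No threshold on any measured value chose the members.

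H2Bub1 is histone H2B carrying a single ubiquitin, placed by an E3 ligase of which Rnf20 is a subunit, and it is known to spread over the bodies of transcribed genes. Fbxl19 is an F-box protein whose CXXC zinc finger binds unmethylated CpG, the sequence that marks CpG islands at many promoters. Because the mark follows transcribed units, the ends and the length of a domain describe more than its presence at a site.

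The series profiled mouse J1 ES cells by chromatin immunoprecipitation and sequencing in 21 samples of 12 groups. ES cells were grown with leukemia inhibitory factor, and the source label of the differentiated samples also reads ES cells. Input DNA served as control, per the labels. The differentiated H2Bub1 group has 2 samples of J1 cells at day 4, with no transgene named in the labels. The sources used here do not give the method of differentiation, and the identity of the cells could not be checked, since the lists hold no expression values. The overexpression (OE-high) H2Bub1 group has 3 samples of undifferentiated J1 cells of a clone that carries flag- and biotin-tagged Fbxl19, selected for overexpression of more than 5-fold. The labels of the third sample name no list, and it may or may not be part of the combined list. Both groups were precipitated with the same antibody to H2Bub1. No list from differentiated cells of the OE-high clone was used here, so the state of the cells and the transgene differ together between the lists. Annotation came from 3 further H2Bub1 lists, those of ES cells (3 samples), of ES cells with Fbxl19 knocked down (2 samples) and of Fbxl19 knockdown cells at day 4 of differentiation (2 samples). It also came from Fbxl19 peaks of the OE-high clone and of a clone below the endogenous level (OE-low), with 2 samples each, and from Rnf20 peaks of 1 sample. The OE-low and Rnf20 cells contain BirA, a biotin ligase. All Fbxl19 and Rnf20 peaks were measured in undifferentiated cells, and those of the OE-high clone come from the same clone as the OE-high H2Bub1 list.

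Each H2Bub1 list combines its samples, and no values per sample were analysed. No difference between the lists could therefore be set against a spread between replicates, and no p-value was computed. The intervals in parentheses are 95% intervals by the exact Clopper-Pearson method and hold counting error of domains or ends alone. The track lines carry the number 36 for the differentiated list and 46 for the OE-high list. What the number counts is not stated, depth per sample is unknown, and the part of depth in any difference below was not tested. A domain missing from a list can mean a weaker mark in each cell or a mark in fewer cells, which cannot be told apart.

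As deposited, the differentiated landscape lay largely within the OE-high landscape. Of the 5125 differentiated domains, 94.2% (4827, interval 93.5 to 94.8) had an OE-high counterpart. In the other direction the share was 66% (4760 of 7216 OE-high domains, interval 64.9 to 67.1). The differentiated list covered 156 Mb, or 6.04% of the 2575 Mb that the lists span on 20 chromosomes, and the OE-high list covered 246 Mb, or 9.54%. The lists had 141 Mb in common, which was 90.7% of the differentiated length and 57.4% of the OE-high length. The imbalance moved with the sizes of the lists. With the OE-high list cut by score to the number of differentiated domains, the shares of domains were 82.4% (differentiated) and 80.1% (OE-high), and at equal covered length 73.3% and 84.7%.

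Overlap was mostly deep rather than marginal on the differentiated side. At least 50% of the length was covered by OE-high domains in 4765 differentiated domains (93.0%), at least 90% in 4194 (81.8%), and the whole length in 2777 (54.2%). Of the OE-high domains, 4162 (57.7%) were covered to 50% or more by differentiated domains and 1358 (18.8%) over their whole length. Over both lists together, 54.3% of the 260 Mb of their union was shared. This was the highest share among the 10 pairs of H2Bub1 lists. The next pair was ES cells and ES knockdown with 47.3%, and ES cells shared 22.1% of the union with the differentiated list and 18.4% with the OE-high list. These shares move with the sizes of the lists, and ES cells enter several of the pairs.

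**Figure D1:**
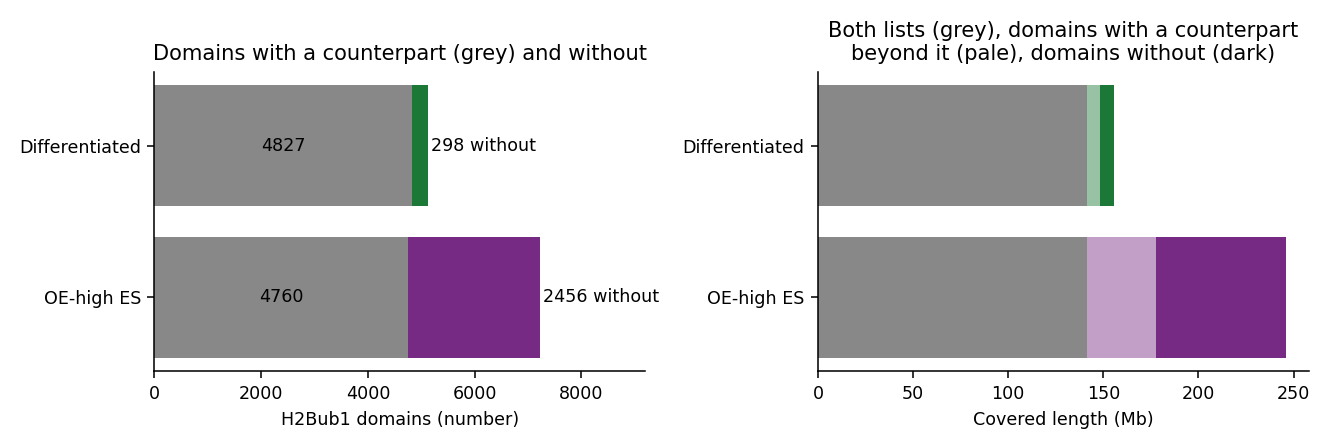
Number of H2Bub1 domains with and without a counterpart (left) and covered length in Mb (right) in the differentiated and OE-high lists. Grey marks what has a counterpart (left) or lies in both lists (right). Pale colour marks the parts of domains with a counterpart that the other list does not cover, including gaps inside them. Dark colour marks the domains without a counterpart. A reader should see 298 differentiated against 2456 OE-high domains without a counterpart, and 141 Mb in both lists.

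Agreement varied with length and score within each list. Scores are the authors' own values per domain, above 7 in every line, and serve here to rank or class domains within a list. Whether they are on 1 scale in both lists is not stated. Of the differentiated domains under 2 kb, 55 of 80 (68.8%) had a counterpart, against 96.7% of those of 20 to 50 kb and 95.6% of those of 50 kb and over. OE-high domains ran from 25.6% under 2 kb (52 of 203) to 75% at 20 to 50 kb and 74.6% at 50 kb and over. Score separated the OE-high domains more widely than length did. From the lowest to the highest of 4 score classes of equal size, the share with a differentiated counterpart was 29.8%, 59.1%, 82.4% and 92.5%. The differentiated domains had 88.8%, 93.2%, 96.9% and 97.8% in the same order of classes.

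The X chromosome lay below every autosome in both shares, and the autosomes varied more in the OE-high share than in the differentiated share. On the autosomes, 88.6% (chromosome 6) to 96.1% (chromosome 16) of differentiated domains had a counterpart, with a median of 95.0%. On the X chromosome 18 of 27 did (66.7%, interval 46.0 to 83.5). OE-high domains had a counterpart in 55.7% (chromosome 14) to 78.3% (chromosome 1) on autosomes and in 18 of 61 on X (29.5%, interval 18.5 to 42.6). The X chromosome held few domains in either list, 0.707 Mb in the differentiated and 1.94 Mb in the OE-high list. The ratio of OE-high to differentiated covered length ranged from 1.27 to 1.90 over the autosomes, with a median of 1.66, and the OE-high list covered more than the differentiated list on each of the 20 chromosomes.

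Most shared places held a single domain in each list. Grouping domains that overlap gave 4562 shared groups, of which 4154 (91.1%) paired 1 differentiated with 1 OE-high domain. In 227 groups (4.98%) a single OE-high domain spanned several differentiated domains, 470 in all. The reverse, a single differentiated domain over several OE-high domains, occurred in 162 groups (3.55%) with 339 OE-high domains, and 19 groups held several of both. The stretches that OE-high domains bridged were longer. The 265 gaps between differentiated domains inside an OE-high domain had a median of 13000 bp (quartiles 4800 and 23800), and 70 were at most 5 kb. The 198 gaps between OE-high domains inside a differentiated domain had a median of 3400 bp (quartiles 1000 and 9400), and 120 were at most 5 kb.

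The clearest joined place lay on chromosome 12 (mm9), at chr12:103791600-104116599, an OE-high domain of 325000 bp with a score of 21.5. Differentiated cells had 3 domains there, at chr12:103827600-103943199, chr12:103978800-104014599 and chr12:104050400-104116599, the last of which ended at the same position as the OE-high domain. The OE-high domain held 10 Fbxl19 peaks of the same clone and 4 of the OE-low clone. A further OE-high domain over 3 differentiated domains, chr12:56146800-56387199 (240400 bp), held 3 Fbxl19 peaks, 1 inside each of the differentiated domains. On chromosome 17, the reverse was seen: the differentiated domain chr17:25052400-25157799 (105400 bp) faced 4 OE-high domains, and the right end of the last of these, at 25157599, lay 200 bp inside it. A single Fbxl19 peak, at chr17:25073764-25074069, lay at the right end of the second OE-high domain, which ended at 25073999. On chromosome 2, the differentiated domain chr2:125668200-125711799 also faced 4 OE-high domains, and the first of them reached beyond its left end, to 125655400.

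**Figure D2:**
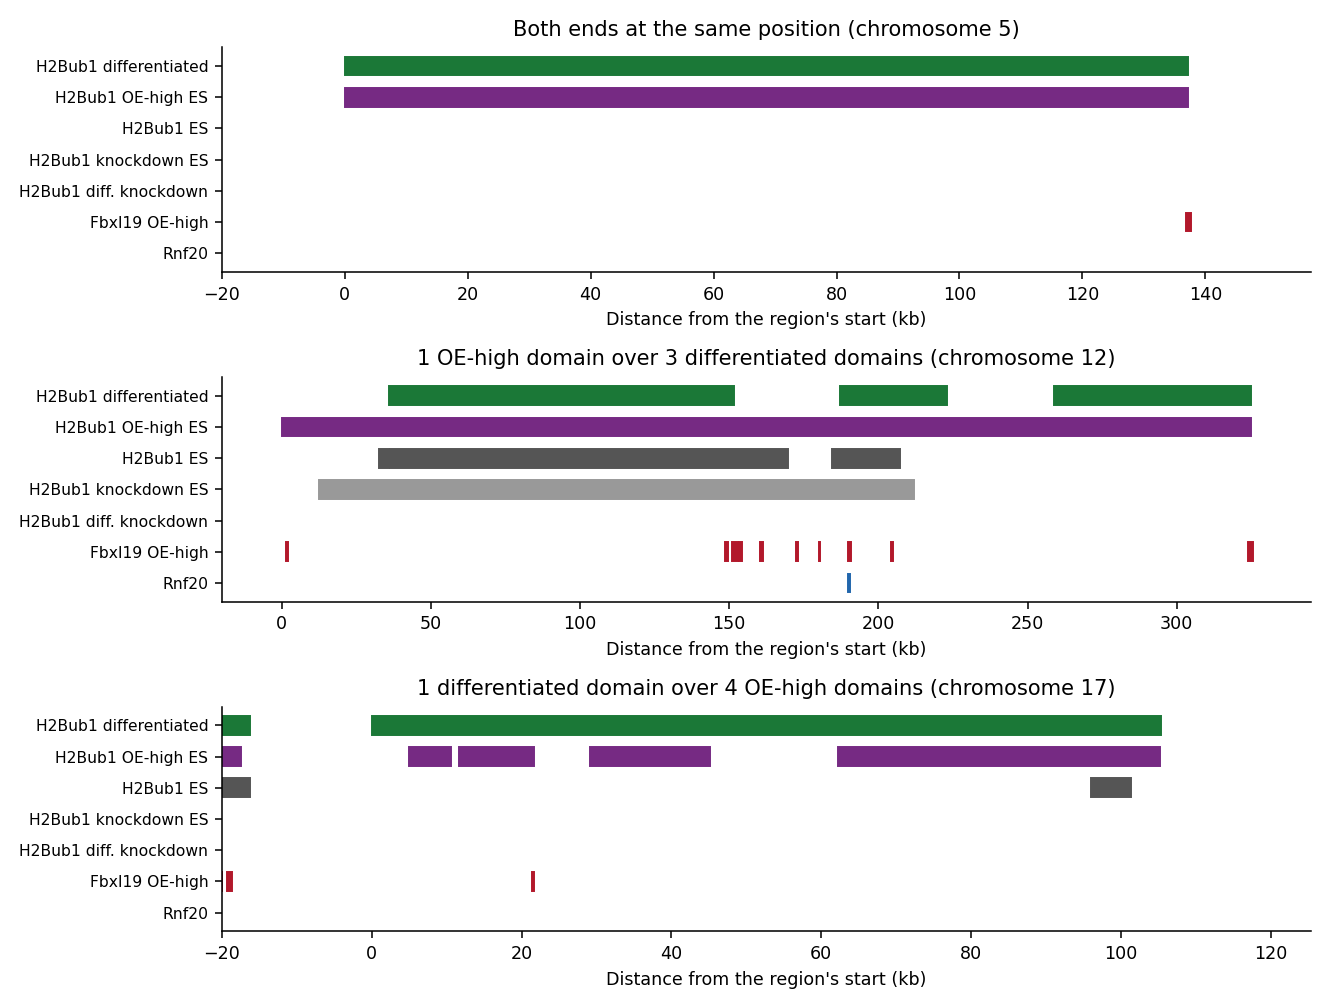
Maps of 3 named regions, with distance in kb from the region's start on the horizontal axis and 1 row per list; bars are H2Bub1 domains of the 5 groups and short bars Fbxl19 (OE-high clone) and Rnf20 peaks. In the top map the domains of both lists have the same ends (137200 bp), in the middle map 1 OE-high domain of 325000 bp covers 3 differentiated domains, and in the bottom map 1 differentiated domain of 105400 bp covers 4 OE-high domains.

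In the 4154 places with 1 domain in each list, ends coincided closely, usually at 1 side. Domain ends lie on a grid of 200 bp. The left ends were at the same position in 1204 places (29.0%) and the right ends in 1151 (27.7%). Within 1 kb lay 63.5% of the left and 62.6% of the right ends, so neither side of the map was favoured. Both ends were within 1 kb in 1552 places (37.4%, interval 35.9 to 38.9), exactly 1 end in 2137 (51.4%) and at least 1 end in 3689 (88.8%, interval 87.8 to 89.7). The remaining 465 places (11.2%) had neither end within 1 kb, and 77 (1.85%) had neither within 5 kb.

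Where ends differed, the OE-high domain more commonly reached further. Of all 8308 ends, 2355 (28.3%) were equal, the OE-high end lay further out at 3938 (47.4%), by a median of 1600 bp, and the differentiated end at 2015 (24.3%), by a median of 600 bp. The largest excess was 213400 bp for OE-high and 93600 bp for the differentiated list. Counting only excesses over 1 kb, the commonest pattern was an OE-high domain reaching further at 1 end with the other end held within 1 kb, in 1579 places (38.0%). There the median length was 19000 bp in differentiated and 28600 bp in OE-high cells. The OE-high domain reached further at both ends in 300 places (7.22%), with medians of 24100 and 47600 bp. The differentiated domain reached further at 1 end in 558 places (13.4%, medians 33600 and 26800 bp) and at both in 37 (0.891%).

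Among the 10 pairs of H2Bub1 lists, the share with both ends within 1 kb was higher only for ES cells and ES knockdown (42.0% of 1215 places). ES cells against the differentiated list had 19.0% of 1665 places and ES cells against OE-high 16.3% of 1939. The differentiated list and its knockdown had 11.3% of 929 places. The coverage plot around ends shows the same closeness without pairing of domains. At the ends of the 2554 differentiated domains of at least 20 kb, OE-high coverage was 18.9% at 10 kb outside and 32.2% at 1 kb outside. It was 84.5% at 1 kb inside and 91.3% at 5 kb inside. At the ends of the 3828 OE-high domains of that length, differentiated coverage went from 7.82% at 10 kb outside to 10.4% at 1 kb outside, and from 50.1% at 1 kb inside to 59.4% at 5 kb inside. Farther out the coverage was higher again, at 22.8% and 14.6% at 100 kb, and the flank at 5 kb outside OE-high ends was covered at 6.67%.

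Ends that coincided had an Fbxl19 summit of the OE-high clone nearby more often than ends that lay apart. Over all 8308 ends, 2566 had such a summit within 1 kb of the differentiated end. The counts were 1053 for Rnf20 peaks and 336 for OE-low Fbxl19 summits. Of the 2355 ends at the same position in both lists, 1316 (55.9%, interval 53.8 to 57.9) had an OE-high Fbxl19 summit within 1 kb. The share was lower at each wider gap between the ends of the lists, with 42.6% at a gap of 200 bp, 19.0% above 200 bp up to 1 kb, and 13.9% above 1 kb up to 5 kb. At gaps over 5 kb it was 10.3% at the differentiated end (143 of 1395, interval 8.71 to 12) and 5.88% at the OE-high end. The order was the same in the 2040 places of at least 20 kb in both lists, from 58.8% at the same position to 9.55% at gaps over 5 kb. Rnf20 peaks, whose midpoints were used, had 20.9%, 16.1%, 9.59%, 6.88% and 5.66% in the same order of gaps. Fbxl19 summits of the OE-low clone had 7.01%, 5.35%, 2.53%, 1.97% and 1.86%.

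The same ends were also counted from the peaks, which rearranges the counts above and is no separate evidence. Of the 2566 differentiated ends with an OE-high Fbxl19 summit within 1 kb, 85.3% had the OE-high end within 1 kb, with a median gap of 0 bp. Ends without a summit had 53.1%, with a median gap of 1000 bp. The corresponding shares were 81.6% and 60.4% for Rnf20, and 82.4% and 62.3% for OE-low Fbxl19. The OE-high H2Bub1 and OE-high Fbxl19 lists come from the same clone, while the OE-low and Rnf20 peaks come from other cells.

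**Figure D3:**
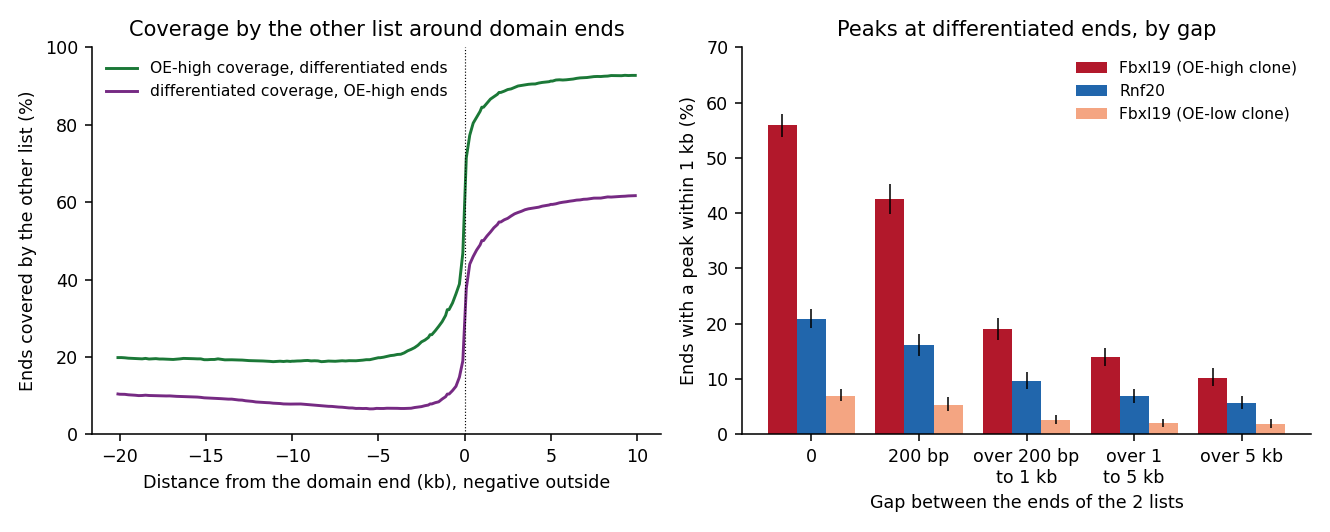
Left, percent of domain ends covered by the other list against distance from the end in kb (negative outside, domains of at least 20 kb); right, percent of differentiated ends of 1 to 1 places with a peak within 1 kb, by the gap to the OE-high end, with exact 95% intervals as bars. OE-high coverage rises from 32.2% to 84.5% between 1 kb outside and 1 kb inside differentiated ends, and the share of ends with an OE-high Fbxl19 summit goes from 55.9% at equal ends to 10.3% at gaps over 5 kb.

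Places with a single OE-high Fbxl19 summit were split into the end nearer to the summit and the far end. The split used the region merged over both lists, so an end where 1 list reaches further tends to become the far end, and the difference below is in part set by the split. In 1753 such places the end nearer to the summit differed between the lists by a median of 200 bp and the far end by 1200 bp. The near end was within 1 kb in 75% (interval 72.9 to 77.0) and the far end in 47.9% (interval 45.5 to 50.2). The near gap was the smaller in 1162 places, the far gap in 449, and both were equal in 142. The 1385 places whose summit lay in the outer 20% at either side had 81.4% of near and 45.8% of far ends within 1 kb. In the 368 places with a summit nearer the middle, the near end was within 1 kb in 50.5% and the far end in 55.4%, and these intervals overlap (45.3 to 55.8 and 50.2 to 60.6). With Rnf20 the near and far shares were 71.5% and 52.5% over 920 places, and with OE-low Fbxl19 62.8% and 45.9% over 414.

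The median place had nearly the same length in both lists, and large differences were more commonly towards a longer OE-high domain. The median length over the 4154 places was 20200 bp in differentiated and 25000 bp in OE-high cells, and the median of the ratio of OE-high to differentiated length was 1.04 (quartiles 0.986 and 1.35). The lengths were within 10% of each other in 48.2% and equal in 6.88%. OE-high was longer in 64.1% (interval 62.6 to 65.5), and at least double in 525 places (12.6%), while 50 places (1.2%) had an OE-high length of at most 50% of the differentiated one. For comparison, the median ratio was 1.46 for differentiated over ES domains and 1.84 for OE-high over ES domains, comparisons that share the ES list. Over the places, Spearman's rho was 0.88 for the lengths and 0.65 for the scores, given as a description, since both lists see the same sequence and caller.

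The length ratio was also taken by length and by score. The median ratio was 1.30 (quartiles 1.00 and 2.27) for 415 places under 5 kb in differentiated cells and 1.08 (0.983 and 1.59) for 1643 places of 5 to 20 kb. It was 1.03 (0.988 and 1.2) for 1357 places of 20 to 50 kb and 1.01 (0.982 and 1.08) for 739 places of 50 kb and over. The share within 10% was 26.3%, 40.4%, 54.5% and 66.2% in that order. Since the classes were cut on the differentiated length, which is also the denominator of the ratio, short classes gather high ratios by construction. By 4 classes of the OE-high score, from lowest to highest, the median ratio was 1.26, 1.04, 1.03 and 1.02. By 4 classes of the differentiated score it was 1.05, 1.04, 1.04 and 1.04, with no such order. In the OE-high score classes the share with both ends within 1 kb was 27.4%, 35.2%, 41.5% and 45.3%.

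The ratio was similar with and without an ES domain and with and without an Fbxl19 peak. It was 1.04 in the 1816 places that overlapped an ES domain and 1.04 in the 2338 that did not, and both ends were within 1 kb in 35.8% and 38.6%. Places with an OE-high Fbxl19 peak had a ratio of 1.04 (n = 3156) and those without 1.03 (n = 998), with both ends within 1 kb in 35.8% (interval 34.1 to 37.5) and 42.3% (interval 39.2 to 45.4). Places with a peak were also the longer ones, with a median differentiated length of 21800 bp against 16700 bp, and the part of length in this difference was not tested. Peaks and ES domains were assigned to the region merged over both lists. Ends that lie apart make that region longer, so the difference in both-ends shares is in part set by this rule. In 1496 places with exactly 1 ES domain, the median length was 10200 bp in ES, 21700 bp in differentiated and 26200 bp in OE-high cells, and 1015 (67.8%) were shorter in ES than in both others. Where the differentiated and OE-high ends lay within 1 kb of each other, the ES end lay within 1 kb of both in 62.2% (1150 of 1849, interval 59.9 to 64.4). Where they lay further apart, the ES end was within 1 kb of the differentiated end in 25.5% and of the OE-high end in 14.3% of 1143.

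**Figure D4:**
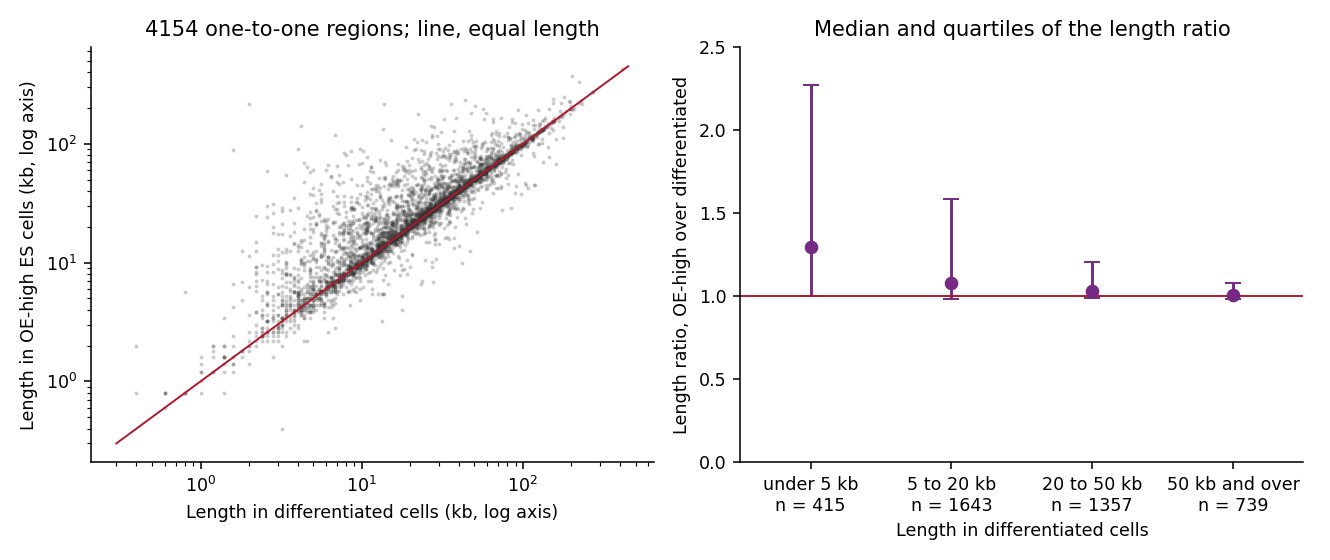
Left, length in OE-high against differentiated cells in kb for the 4154 places with 1 domain in each list, both axes logarithmic, with the line of equal length; right, median and quartiles of the length ratio by differentiated length. Points crowd along the line and spread above it, and the median ratio goes from 1.30 under 5 kb to 1.01 at 50 kb and over.

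The domains with the same ends in both lists numbered 208 (5.01%), from 600 to 137200 bp long with a median of 17600 bp, and 28 were at least 50 kb. Of these, 157 (75.5%) contained an Fbxl19 peak of the OE-high clone, close to the 3156 of 4154 among all places with 1 domain in each list. The longest, chr5:125522200-125659399 (137200 bp), had scores of 9.65 in differentiated and 13.2 in OE-high cells and no domain in the other 3 H2Bub1 lists, and a single Fbxl19 peak (chr5:125659118-125659859) spanned its right end. The second, chr6:119855600-119988599 (133000 bp), also had an Fbxl19 peak across its right end, at chr6:119987975-119989211. A domain of the differentiated knockdown list, 49000 bp long, lay over the right side of this second place and ended 200 bp beyond it. The third, chr1:38055000-38186599 (131600 bp), had an OE-high Fbxl19 peak across each end, at chr1:38054554-38055545 and chr1:38185690-38187118, and its right end was shared with the ES and ES knockdown lists. By score, the leading shared places were chr17:39979800-39985999, present in all 5 H2Bub1 lists, with a score of 161 in the differentiated list. It was followed by chr5:125862600-125870199, with 6 Rnf20 peaks, and chr16:57391200-57391999, which had the same ends in all 5 lists.

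Domains with no counterpart differed from shared domains in the same direction in both lists. They were shorter, lower in score and less often marked by Fbxl19 or Rnf20. The 298 differentiated-only domains had a median length of 9000 bp and a median score of 8.45, against 20400 bp and 10.2 for those with a counterpart. The 2456 OE-high-only domains had 14000 bp and 8.98, against 25800 bp and 13.5. They did not lie at the margins of the other list. The nearest domain of the other list was a median of 57800 bp away from differentiated-only domains, 13 of them within 5 kb, and 74600 bp away from OE-high-only domains, 90 of them (3.66%) within 5 kb and 1030 (41.9%) over 100 kb.

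OE-high Fbxl19 peaks lay in 72.3% of all differentiated and 67.5% of all OE-high domains. In differentiated domains the share was 74.4% with a counterpart (interval 73.2 to 75.6) and 38.6% without (115 of 298, interval 33.0 to 44.4). In OE-high domains it was 75.7% with (interval 74.4 to 76.9) and 51.6% without (interval 49.6 to 53.6). The shared domains of both lists are largely the same places, so their similar shares are no separate finding. OE-low Fbxl19 peaks lay in 11.9% of all differentiated and 12.4% of all OE-high domains, with 3.69% in differentiated-only and 8.31% in OE-high-only domains. Rnf20 peaks lay in 32.1% of all differentiated and 31.7% of all OE-high domains. They lay in 33.3% of differentiated domains with a counterpart and 12.1% of those without (interval 8.61 to 16.3). The OE-high values were 35.8% and 23.7% (interval 22.1 to 25.5).

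Longer domains held a peak more often, so the shares were also taken by length. Among differentiated domains of 50 kb and over, 740 of 890 with a counterpart held an OE-high Fbxl19 peak (83.1%), against 18 of 41 without (43.9%). Among those of 5 to 10 kb it was 71.1% and 42.3%. In the OE-high list the shares were 71.6% and 46.9% at 5 to 10 kb and 84.8% and 72.8% at 50 kb and over. The share was higher with a counterpart in each of the 6 length classes of both lists, though the intervals overlapped in differentiated domains under 2 kb and of 2 to 5 kb and in OE-high domains under 2 kb. The unshared classes differed in length from each other, and within length classes their order varied. OE-high-only domains had 7.95% and differentiated-only domains 12% under 2 kb, 35.7% and 48.4% at 2 to 5 kb, and 46.9% and 42.3% at 5 to 10 kb. The intervals of the unshared classes overlapped in each length class up to 20 kb. They did not at 20 to 50 kb, with 64.2% (60.1 to 68.1) in OE-high-only and 34.0% (21.5 to 48.3) in differentiated-only domains, nor at 50 kb and over, with 72.8% and 43.9%. By 4 classes of OE-high score the share was also higher with a counterpart, from 63.3% against 47.1% in the lowest to 81.1% against 58.5% in the highest. In the top 50% of each list the difference between domains with and without a counterpart was 10.4 percentage points in the OE-high and 13.5 in the differentiated list, against 24.1 and 35.8 over the whole lists. That cut also removes counterparts, and domains that lost theirs count as without one. With counterparts from the whole lists, class 3 of the OE-high score had 76.9% against 53.0%. The highest class of the differentiated score had 79.2% against 39.3%, the latter over 28 domains. Rnf20 in the highest OE-high class went the other way, with 42.6% with and 47.4% without a counterpart, the latter over 135 domains.

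Counted per length, the density of Fbxl19 summits set the parts of the landscapes apart in another way. The average over the span was 5.30 OE-high Fbxl19 summits per Mb. The 141 Mb in both lists had 22.5 per Mb and the 68.0 Mb of OE-high-only domains 21.1 per Mb. The 7.14 Mb of differentiated-only domains had 11.3 per Mb. These parts are unlike, since that in both lists leaves out stretches beyond the counterpart, while domains without a counterpart are whole. Whole OE-high domains, counted by overlapping peaks instead of summits, had 31.3 per Mb with a counterpart and 26.5 without. Differentiated domains had 33.6 and 18.2. By summits, the densest parts were the stretches of domains with a counterpart that the other list did not cover. They had 31.3 per Mb over 36.7 Mb in OE-high domains and 45.8 per Mb over 7.25 Mb in differentiated domains. These pieces, with medians of 1800 and 800 bp, include gaps between domains of the other list as well as outer ends. Rnf20 was even across most parts, at 14.4 per Mb in both lists, 14.2 in OE-high-only domains and 14.8 in the uncovered stretches of either list. It had 3.92 per Mb in differentiated-only domains against 3.29 over the span. Of all 13669 OE-high Fbxl19 summits, 3177 (23.2%) lay in both lists, 2584 (18.9%) in OE-high domains alone, 413 (3.02%) in differentiated domains alone and 7495 (54.8%) in neither.

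**Figure D5:**
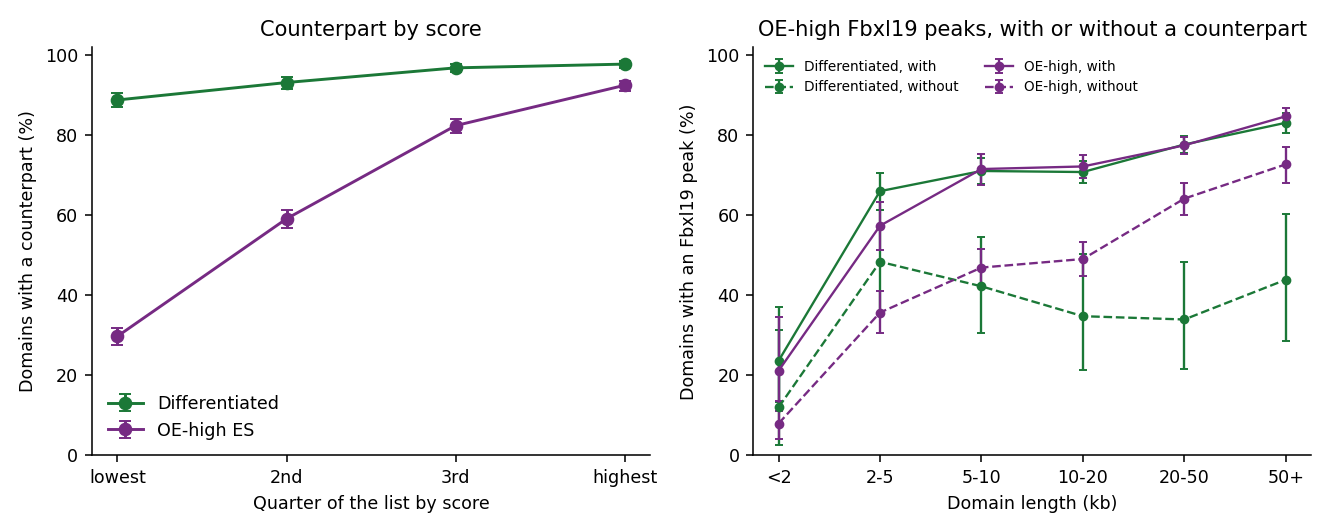
Left, percent of domains with a counterpart by score class within each list; right, percent of domains with an OE-high Fbxl19 peak by domain length in kb, for domains with (solid) and without (dashed) a counterpart; bars are exact 95% intervals. The OE-high share with a counterpart runs from 29.8% to 92.5% with score, and the solid lines lie above the dashed ones in each length class.

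Unshared domains were less represented in the other 3 H2Bub1 lists than shared ones. Overlap was counted from 1 bp and unshared domains were shorter, and the part of length in these shares was not tested. Of all differentiated domains, 41.3% overlapped an ES domain, and of all OE-high domains 34.8%. The shares were 43.2% and 43.1% for domains with a counterpart in the 2 lists, but 11.4% (34 of 298) for differentiated-only and 18.6% (458 of 2456) for OE-high-only domains. The differentiated knockdown list met 18.9% of all differentiated and 13.9% of all OE-high domains. It met 6.38% of differentiated-only and 2.08% of OE-high-only domains. In none of the other 3 H2Bub1 lists lay 246 differentiated-only domains (82.6%) and 1931 OE-high-only domains (78.6%), against 49.7% and 49.5% of those with a counterpart. The OE-high-only domains included 155 that were in both the ES and the ES knockdown list but not in the differentiated knockdown list, with a median length of 21000 bp, and 268 that were in the ES list alone of these 3. The share of OE-high-only domains in the ES list moved with the lists used. It was 27.3% and 32.7% with the OE-high list cut by score to the number or the covered length of the differentiated list, and 37.6% with the top 50% of each list, where counterparts are also lost from the differentiated list.

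Of 9 differentiated domains with a score of at least 50, 6 had no OE-high counterpart, and 5 of these lay in the ES and differentiated knockdown lists but not in the ES knockdown list. None of the 6 held an Fbxl19 or Rnf20 peak, and their median length was 1300 bp. Peaks were few in all differentiated-only domains under 2 kb, with Fbxl19 in 3 of 25 and Rnf20 in 2 of 25. The 6 domains with a score of at least 50 and no counterpart included chr9:2999800-3038399 (38600 bp, score 226). They also included chr2:98506000-98507599 (1600 bp, score 191) and chr9:35112400-35113399 (1000 bp, score 114). The first of these had identical ends in the ES and differentiated knockdown lists. The median score over the differentiated list was 10.1. Whether these and the highest-scored shared places lie in repeats was not tested, since no mm9 sequence or annotation was used. Of the 12 OE-high domains with a score of at least 50, 1 had no differentiated counterpart, chr11:108872600-108873799 (score 50.3), which lay in the other 3 H2Bub1 lists and held an Rnf20 peak. The next OE-high-only domains by score were chr8:74842800-74847799 (score 39.9), with 1 Fbxl19 and 3 Rnf20 peaks, and chr13:66690000-66697599 (score 39.4), in the ES and ES knockdown lists.

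The longest unshared domains had low scores. The differentiated-only domain chr11:34934600-35320399 (385800 bp, score 7.16) lay in no other H2Bub1 list and held 4 Fbxl19 peaks of OE-high ES cells, and chr1:170114400-170362199 (247800 bp, score 9.5) held 1. The OE-high-only domain chr2:5300000-5597199 (297200 bp, score 8.02) held 2 Rnf20 peaks and no Fbxl19 peak, and a 600-bp ES domain began at the same position as it. The OE-high-only domain chr18:69502800-69792399 (289600 bp, score 7.04) held 3 Fbxl19 peaks, the first within 2 kb of its left end.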

How the data were processed

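The deposited files were lists of regions on mm9. BWA 0.5.9-r16, MACS and mm9 are listed, without roles, per the submitters' processing notes. The H2Bub1 track lines end in BCP, per the file headers, and each line holds the authors' deposited score, of unstated formula, and the authors' deposited domain length in base pairs. The Fbxl19 and Rnf20 lists also hold deposited scores of the authors, which were not compared between lists. Reads per sample were not analysed.

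Fbxl19 positions were read as counted from 1, the others as counted from 0, and all are printed counted from 1. Groups came from sample titles. Overlapping domains were joined into groups, and ends and lengths were compared in places with 1 domain in each list. A domain held a peak if they overlapped by 1 bp; ends used listed Fbxl19 summits and Rnf20 midpoints. There was no test. Exact Clopper-Pearson 95% intervals were computed.

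Named regions were the 3 highest-scored per class (for shared places the lower score of both lists), the 3 longest with identical ends, the 2 longest unshared per list, and the 2 of each list that overlap most domains of the other. The class by score of at least 50 was chosen after its values were seen. The members, lists and rules were chosen with earlier results of these data known. Alternatives are in the closing section. No mm9 sequence or annotation was used, so no region was assigned to a gene.

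Python 3.11.15, NumPy 2.4.6, pandas 2.3.3, SciPy 1.17.1 and matplotlib 3.10.9 were used. On simulated pairs of lists with 5000 domains each, the tested code recovered 40% of domains as shared where 40% were planted, and 50% with the same left end where 50% were planted.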

Additional observations from a re-analysis of the deposited data

How the results depend on the processing

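No paired analysis was possible because each list combines its samples. Leaving out replicates was not possible for the same reason. Shares in percent cannot change sign. No difference in percentage points changed sign and no median length ratio fell below 1 under the alternatives that were run. Of the values of the main results under them, 28 stayed within the 95% interval of the reported value, or within 1 percentage point for base pairs, which have no interval, and 35 did not. Autosomes only and domains of at least 2 kb moved none of them. With the OE-high list cut to 5125 domains, 82.4% of differentiated and 80.1% of OE-high domains had a counterpart, 82.2% and 70.1% of their lengths were shared, 92.3% of shared groups were 1 to 1, the median length ratio was 1.03 and 27.3% of OE-high-only domains were in the ES list. With it cut to the covered length of the differentiated list, an alternative chosen after seeing the data, these were 73.3%, 84.7%, 74.6%, 74.6%, 92.7%, 1.03 and 32.7%, and both ends were within 1 kb in 39.6%. With the top 50% of each list, they were 82.0%, 57.6%, 83.9%, 50.2%, 95.3%, 1.03 and 37.6%, with both ends in 40.6%. The higher share of sites was that of the differentiated list as deposited and at equal number, and that of the OE-high list at equal covered length. Requiring 50% of the query domain gave 93.0% and 57.7% of sites, and 50% in both directions 74.3% and 52.8%. Joining domains across gaps of up to 5 kb gave 93.4% of groups as 1 to 1, and the unshared domains and peaks were not run with it. The excess of OE-high Fbxl19 peaks in domains with a counterpart over those without was 24.1 percentage points in the OE-high and 35.8 in the differentiated list. It was 21.1 and 20.2 with equal numbers, 10.4 and 13.5 in the top 50%, 16 in the differentiated list at equal covered length, and 6.25 and 8.74 with OE-low peaks. Cutting a list also removes counterparts, so some domains without one under a cut had one as deposited. Fbxl19 at equal ends exceeded that at ends over 5 kb apart by 45.6 points, and by 5.14 with OE-low peaks. Depth was not known, so what it limits could not be set.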
